A study of Mus musculus with 4 samples.

Results

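Dendritic cell recruitment and migration was followed through 9 genes that form 4 ligand and receptor axes: Xcl1 and Xcr1, Flt3l and Flt3, Ccl17 and Ccl22 with Ccr4, and Ccr7 with the actin-bundling gene Fscn1. The genes were chosen by name as sources and receivers of these signals, and all 9 were among the 31053 features measured. They were read in Raldh1/3 DKO tumours, mouse fibrosarcomas with a double knockout (DKO) of the retinaldehyde dehydrogenases that make retinoic acid, against Cas9 control tumours. Tumours of both groups were untreated and were taken on day 11, and live CD45+ cells, the leukocytes, were sorted for 10x Genomics 3′ single-cell RNA sequencing. A library pooled 2 tumours, and 2 libraries stood for each genotype. Cells were not replicates, so p-values measured the spread between pools. The tumours were implanted, and the tumour line, the host strain and its age are not given in the sources used here.

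XCL1 is a chemokine of activated natural killer (NK) and T cells that attracts the type 1 conventional dendritic cell (DC), which carries its receptor XCR1 and presents tumour antigen to CD8 T cells. FLT3L is the growth factor that DCs and their precursors need, and they receive it through the receptor tyrosine kinase FLT3. A DC that has taken up antigen matures, turns on the chemokine receptor CCR7, which guides it to the draining lymph node, and makes fascin-1, the FSCN1 protein, which bundles actin in its protrusions. CCL17 and CCL22, made by maturing DCs and by macrophages, attract cells with CCR4, chiefly regulatory and type 2 helper T cells.

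The libraries held 7201 and 5429 barcodes in DKO and 9206 and 8668 in control, with 71381613 and 57458026 unique molecular identifiers (UMIs) in DKO and 80032966 and 74878771 in control. After filtering, 6178 and 4647 DKO cells and 7638 and 7417 control cells were kept, with library medians between 6909 and 8266 UMIs per cell. Pairs of libraries shared 20 to 38 barcode sequences. The targeted genes were too sparse in sorted leukocytes to check the knockout there. Aldh1a1 had 0 and 1 UMIs in DKO and 1 and 0 in control over all cells. Aldh1a3, which encodes Raldh3, had 0 and 0 UMIs in the 29 and 28 tumour or fibroblast-like cells of DKO, against 9 and 3 UMIs in the 57 and 58 such cells of control.

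Cell types were named from marker genes that did not include the 9 genes, which were also kept out of the clustering, and each name carries the suffix -like for that reason. Conventional DC-like cells numbered 260 and 268 in DKO and 350 and 262 in control. They held type 1 cells (27 and 44 in DKO, 36 and 16 in control), type 2 cells (43 and 81 in DKO, 99 and 61 in control), mature cells (93 and 80 in DKO, 112 and 99 in control) and clusters led by Ifit3 and Ifit1 or by Mmp12 and F10. T-like cells numbered 1801 and 1257 in DKO and 1462 and 1093 in control, and NK-like cells 386 and 352 in DKO and 353 and 372 in control. Ly49-expressing T-like cells were a T cell cluster with the Ly49 receptor genes Klra6 and Klra1 among its leading genes. Type 1 and plasmacytoid DC-like cells were too few for a test in at least 1 library, so their values are descriptions.

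UMIs were summed per library and cell type and are given as CPM, the counts per 1000000 UMIs of that sum. Each transcript molecule is counted at its 3′ end, and levels were compared between cell types and groups but not between genes. Changes are log2 of DKO over control with a standard error (SE), from edgeR's quasi-likelihood test adjusted over all genes tested in that cell type, with a threshold of 0.05. In 12 cell types or sums, the low-count filter left 59 combinations of a gene and a cell type, of which edgeR called 1 and DESeq2 2 of the 52 to which it gave an adjusted p; 17 had an unadjusted edgeR p under 0.05. The background for this count differed by cell type, and the share of all tested genes past the same threshold stands beside each result below.

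**Figure D1:**
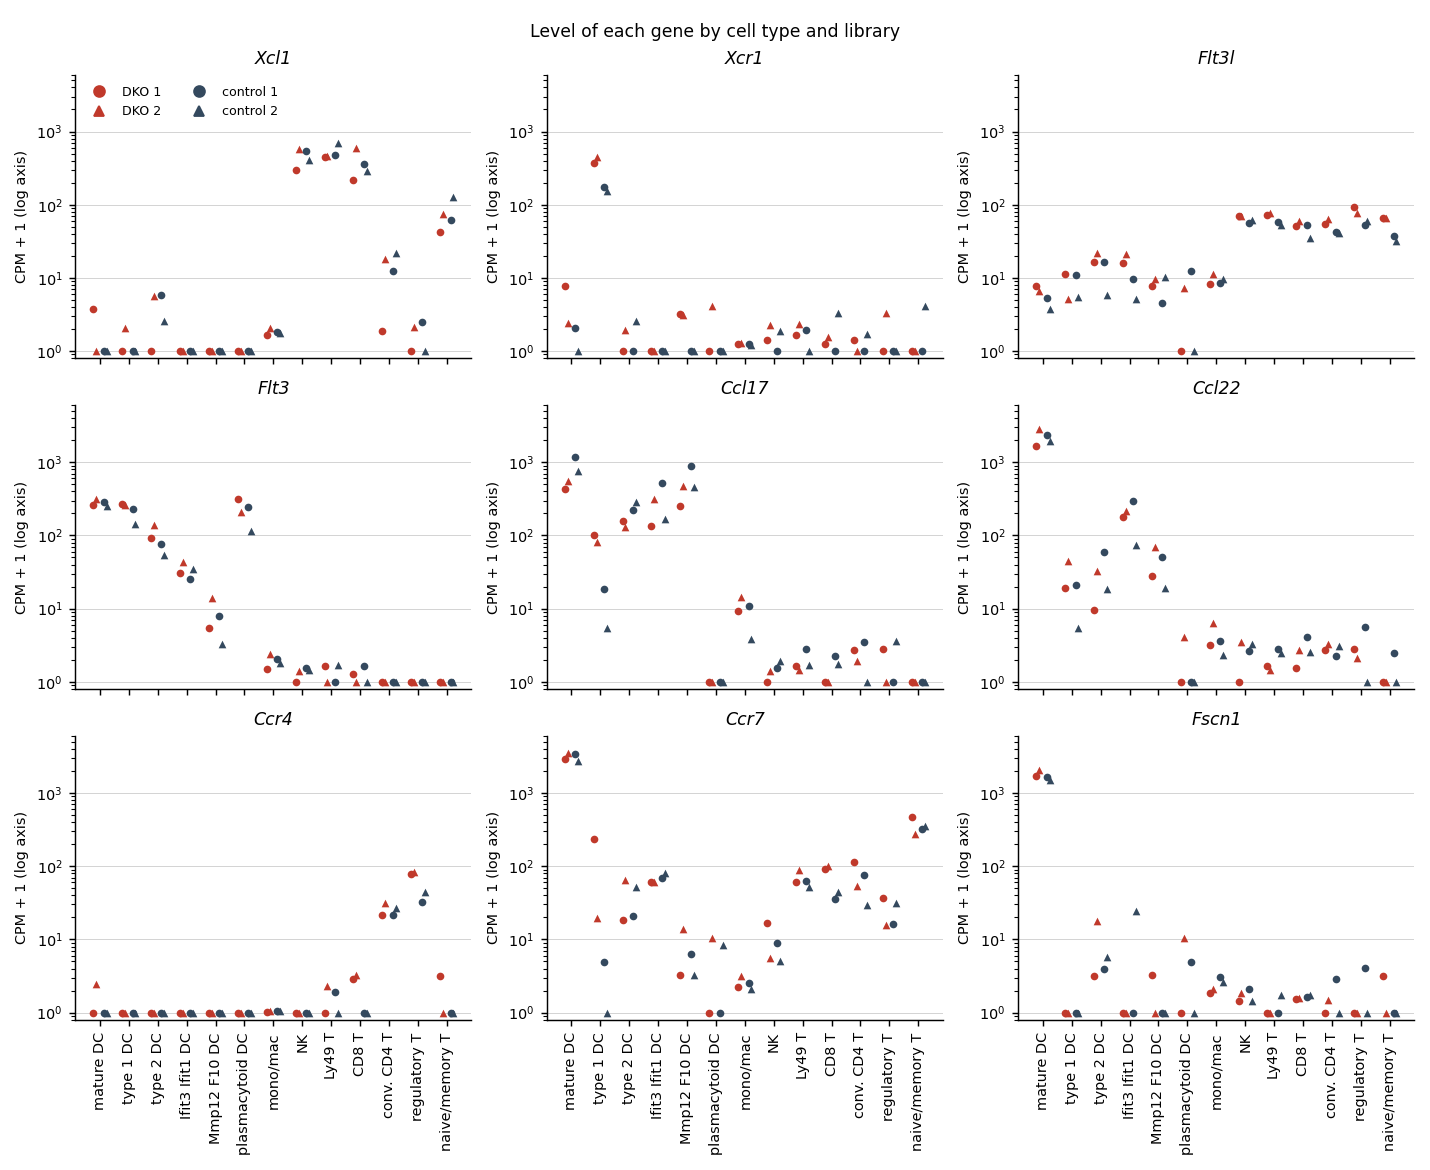
Level of each of the 9 genes by cell type, as CPM + 1 on a log axis; each point is 1 library, DKO in red left of control in blue, with circles for replicate 1 and triangles for replicate 2. Xcr1 and Fscn1 each stood high in a single DC type, Flt3 over several DC types, and Ccr4 in regulatory and conventional CD4 T-like cells.

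In the sum over all CD45+ cells, all 9 genes passed the low-count filter and none was called by edgeR, against 0% of the 14412 genes tested, whereas 3 of the 9 had an unadjusted p under 0.05 (12.9% of all genes) and DESeq2 called 1, Xcr1. In this sum, fewer cells of a type and less RNA per cell cannot be told apart. Flt3l was 18.7 and 23.0 CPM in DKO and 14.0 and 13.3 CPM in control, a log2 change of 0.54 (SE 0.11, edgeR adjusted p = 0.205). Ccr4 had a log2 change of 1.30 (SE 0.33, edgeR adjusted p = 0.263) and Xcr1 one of 2.20 (SE 0.62, edgeR adjusted p = 0.29). These were the 3 genes whose DKO and control libraries did not overlap, and all 3 were higher in DKO, while 47.0% of all tested genes did not overlap either.

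The makeup of the sort moved with these sums. T-like and NK-like cells together were 35.4% and 34.6% of DKO cells and 23.8% and 19.8% of control cells, while 0 of 23 cell types changed in share by edgeR (0% called, 4 with an unadjusted p under 0.05) or by limma. With the CPM of each cell class weighted by 1 fixed cell mix, the log2 difference of Flt3l was 0.29, with 16.9 and 20.4 CPM in DKO and 15.4 and 14.9 CPM in control. Under the same mix the log2 difference of Ccr4 was 0.65, that of Xcr1 1.96, that of Ccl17 -0.60 and that of Ccr7 0.02. For Flt3l, Ccr4, Xcr1 and Ccl17 the libraries of the groups did not overlap at the fixed mix. The margin was narrow for Ccr4, at 1.479 CPM in DKO 1 against 1.475 CPM in control 2. It was also narrow for Ccl17, at 22.6 CPM in DKO 2 against 23.5 CPM in control 2. No share over all genes at the fixed mix stands beside these results. The exact permutation test gave p = 0.333 for each of Flt3l, Ccr4, Xcr1 and Ccl17, the smallest that 2 libraries against 2 allow.

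**Figure D2:**
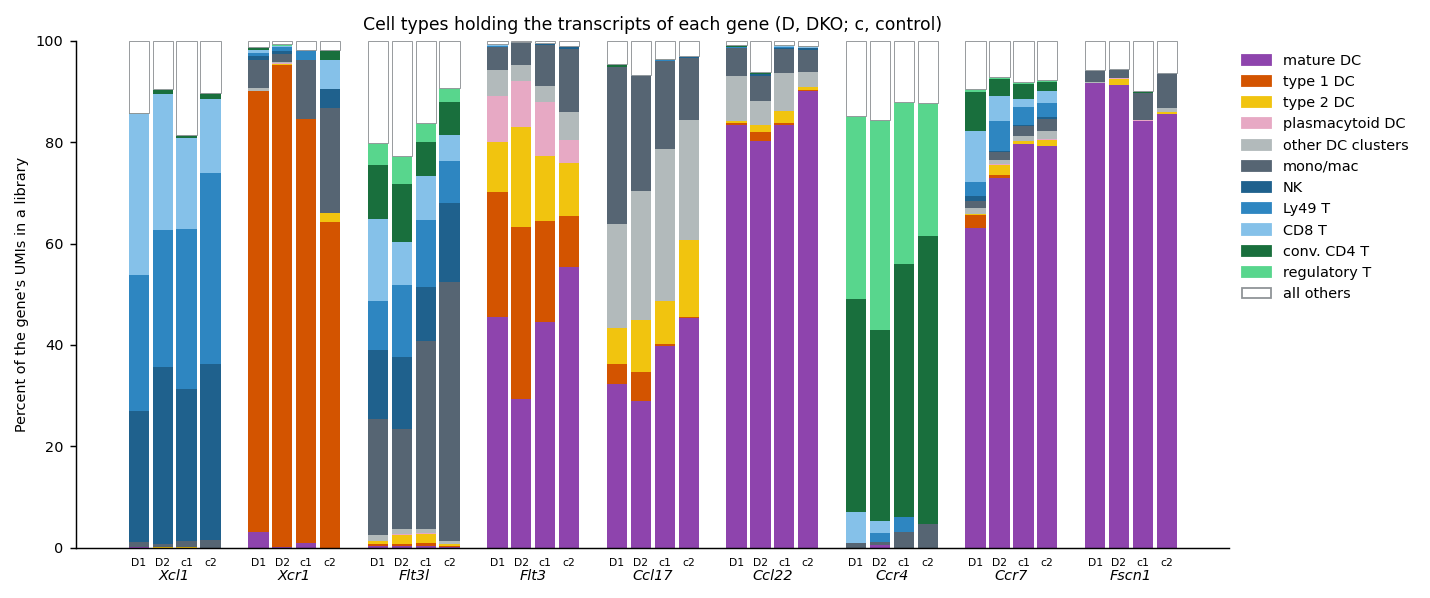
Share of each gene's UMIs that lay in each cell type, as stacked percentages of the library's total for that gene; the 4 bars of a gene are DKO 1, DKO 2, control 1 and control 2. Mature DC-like cells held most Ccl22, Ccr7 and Fscn1 UMIs in every library, and the monocyte/macrophage part of Flt3l was larger in control (37.2% and 51.1%) than in DKO (23.0% and 19.8%).

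XCL1, the ligand that draws type 1 DCs, had its transcripts mostly in cytotoxic lymphocytes. T-like and NK-like cells held 98.7% and 98.9% of Xcl1 UMIs in DKO and 98.5% and 98.3% in control. Xcl1 (chr1:164931644-164935527, GRCm38, minus strand) was highest in Ly49-expressing T-like cells (521 ± 120 CPM, mean ± SD of the 4 libraries), then in NK-like cells (452 ± 128 CPM) and CD8 T-like cells (367 ± 164 CPM), and neighbours in this order differed by less than that spread. Conventional CD4 T-like cells had 0.857 and 17.3 CPM in DKO and 11.4 and 21.0 CPM in control, and DCs held 1 to 6 UMIs per library. The CD4 values depended on DKO 2, without which the log2 change was -4.15 on 2 UMIs in DKO 1 (edgeR adjusted p = 6.35e-06), against -0.92 with it (SE 1.42).

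In Ly49-expressing T-like cells Xcl1 was 447 and 468 CPM in DKO and 469 and 700.5 CPM in control. Both DKO libraries lay below both control libraries, by a narrow margin for DKO 2 and control 1. The log2 change was -0.41 (SE 0.14), which did not pass the test (edgeR adjusted p = 0.134). It was -0.10 without control 2 and -0.68 without control 1, where it passed (edgeR adjusted p = 0.00209; range over all alternatives 0.00209 to 1.00). In this cell type 0 of 3 members tested was called by edgeR, against 1.10% of all genes, 2 had an unadjusted p under 0.05 (12.7% of all genes), and DESeq2 called 0. The 2 were Xcl1 and Flt3l, whose groups did not overlap, as in 44.5% of all genes. Thinned to 2000 UMIs per cell, 36.6% and 40.6% of these cells in DKO and 44.0% and 49.1% in control held an Xcl1 UMI (61.1% and 64.0% in DKO and 64.2% and 64.6% in control before thinning), and at 1000 UMIs the groups overlapped, at 27.6% and 25.9% in DKO and 26.5% and 34.5% in control. The thinned share in monocyte/macrophage-like cells, which lack the gene, was 0.1% and 0.4% in DKO and 0.2% and 0.1% in control. Median depths were 4761 and 6374 UMIs in DKO and 4957.5 and 4513.5 UMIs in control for the Ly49-expressing cells, and 10200.5 and 10634 UMIs in DKO and 9370 and 8854 UMIs in control for the monocyte/macrophage-like cells.

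In NK-like cells Xcl1 was 294 and 567 CPM in DKO and 545 and 402 CPM in control, with overlapping groups and a log2 change of -0.22 (SE 0.26, edgeR adjusted p = 0.815). Of 3 members tested there, edgeR and DESeq2 called 0 (edgeR 0.0762% of all genes) and none had an unadjusted p under 0.05 (9.74% of all genes). Flt3l was the 1 whose groups did not overlap (41.0% of all genes). CD8 T-like cells had 218 and 597 CPM in DKO and 362 and 291 CPM in control, and the DKO libraries lay on either side of the control libraries. The log2 change was 0.20 (SE 0.68, edgeR adjusted p = 0.942). It turned with the library left out, at -0.64 without DKO 2 (edgeR adjusted p = 0.0144) and 0.75 without DKO 1 (edgeR adjusted p = 0.000405; range over all alternatives 0.000405 to 0.996). In the whole T class Xcl1 had a log2 change of -0.36 (SE 0.19, edgeR adjusted p = 0.42), and 0 of 5 members tested was called there by edgeR (0.00895% of all genes), 1 had an unadjusted p under 0.05 (14.1% of all genes), and DESeq2 called 0. Groups did not overlap for 4 of the 5, Flt3l, Ccr4 and Ccr7 higher and Ccl22 lower in DKO, as for 48.8% of all genes. Without DKO 2 the Xcl1 change in the T class was -0.71, and it passed (edgeR adjusted p = 0.00156), and without DKO 1 Ccr4 passed there at 0.97 (edgeR adjusted p = 0.00254).

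XCR1, the receptor for XCL1, had most of its transcripts in the type 1 DC-like cells. Xcr1 (chr9:123852315-123862029, minus strand) was 369 and 453 CPM there in DKO and 172 and 151 CPM in control, from 141 and 435 UMIs in DKO and 87 and 34 UMIs in control. Both DKO libraries lay above both control libraries in level, at a mean of 411 ± 59.9 CPM in DKO and 162 ± 14.5 CPM in control (SD, n = 2 each), with no test at these cell numbers. These cells held 87.0% and 95.0% of all Xcr1 UMIs in DKO and 83.7% and 64.2% in control. Of all cells with an Xcr1 UMI, fewer were type 1 DC-like. They were 21 of 36 and 32 of 55 in DKO and 18 of 33 and 7 of 25 in control.

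After thinning, 44.0% and 51.2% of type 1 DC-like cells in DKO and 31.4% and 18.8% in control held an Xcr1 UMI, where the control 2 value rests on 16 cells. Before thinning these shares were 77.8% and 72.7% in DKO and 50% and 43.8% in control, at median depths of 12406 and 19390 UMIs in DKO and 13040 and 13785 UMIs in control. The thinned share in mature DC-like cells was 0% in every library, at median depths of 7323 and 8479 UMIs in DKO and 7788 and 7025 UMIs in control. Of all type 1 cells, 70.4% and 72.7% in DKO and 41.7% and 37.5% in control held UMIs of both Xcr1 and Flt3.

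In the whole conventional DC class Xcr1 was 54.5 and 122 CPM in DKO and 24.6 and 14.2 CPM in control, again without overlap. The log2 change was 2.08 (SE 0.45), and it did not pass the test (edgeR adjusted p = 0.473). It passed without the low-count filter (edgeR adjusted p = 0.000485) and without either DKO library, at 2.49 without DKO 1 and 1.44 without DKO 2, and the adjusted p ranged from 5.56e-36 to 1.00 over all alternatives. Of the 7 members tested in this class edgeR called 0 (0% of all genes), 2 had an unadjusted p under 0.05, Xcr1 and Ccl17 (8.26% of all genes), and DESeq2 called 1, Ccl17. Xcr1, Flt3l and Flt3 were higher and Ccl17 lower in DKO without overlap between groups, which 40.9% of all tested genes also showed. The summed level of the 13 measured type 1 DC markers, which do not include Xcr1, was 2461 and 3085 CPM in DKO and 1964 and 1573 CPM in control in the class. Within the type 1 cells it was 6868 and 7775 CPM in DKO and 5788 and 5582 CPM in control, and its part in the Xcr1 values was not tested.

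FLT3L, the DC growth factor, had its highest transcript levels in T-like and NK-like cells. Flt3l (chr7:45129788-45136432, minus strand, overlapped on the same strand by Gm45713) was highest in regulatory T-like cells (69.7 ± 17.8 CPM, mean ± SD of the 4 libraries), then in other T-like cells of unnamed clusters (65.6 ± 22.7 CPM), Ly49-expressing T-like cells (64.0 ± 11.3 CPM) and NK-like cells (63.7 ± 6.76 CPM), which differed by less than their spread. T-like and NK-like cells together held 67.2% and 63.5% of its UMIs in DKO and 52.2% and 44.5% in control. Monocyte/macrophage-like cells with the unnamed macrophage-marked clusters held 28.3% and 27.5% in DKO and 41.6% and 52.9% in control. Flt3l was positive in the log2 change in all 11 cell types or sums tested, of which 7 showed no overlap between groups, and edgeR called it in none. These are nested, as all CD45+ cells hold every other type and the classes hold their finer types. All come from the same 4 libraries, so they are not independent results. By type, 38.3% to 48.8% of all genes showed no overlap. The lymphocyte values were higher in DKO without overlap in regulatory, conventional CD4, Ly49-expressing, cycling and naive or memory T-like cells and in NK-like cells, and they overlapped in CD8 T-like and other T-like cells.

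In T-like cells Flt3l was 55.7 and 63.9 CPM in DKO and 48.2 and 40.5 CPM in control. The groups did not overlap, and the log2 change of 0.35 (SE 0.12) missed the threshold (edgeR adjusted p = 0.282). In NK-like cells it was 68.7 and 70.1 CPM in DKO and 56.0 and 60.2 CPM in control, a log2 change of 0.17 (SE 0.16, edgeR adjusted p = 0.758). In regulatory T-like cells it was 91.0 and 77.1 CPM in DKO and 51.6 and 59.1 CPM in control, from 49 and 67 UMIs in DKO and 34 and 23 in control. Both DKO libraries were the higher ones there too, with a log2 change of 0.54 (SE 0.25, edgeR adjusted p = 0.352). Naive or memory T-like cells had 64.1 and 63.9 CPM in DKO and 36.5 and 31.1 CPM in control. Conventional CD4 T-like cells had 53.2 and 63.0 CPM in DKO and 41.0 and 39.9 CPM in control, with a log2 change of 0.46 (SE 0.19, edgeR adjusted p = 0.294). Monocyte/macrophage-like cells had 7.17 and 10.3 CPM in DKO and 7.64 and 8.80 CPM in control, which overlapped at a log2 change of 0.03 (SE 0.21, edgeR adjusted p = 0.979). Of Ly49-expressing T-like cells with an Xcl1 UMI, 37.5% and 43.8% in DKO and 28.0% and 25.8% in control also held a Flt3l UMI. The same share in cells without Xcl1 was 17.1% and 32.5% in DKO and 16.6% and 15.7% in control. In NK-like cells with Xcl1 it was 28.7% and 31.2% in DKO and 22.6% and 22.4% in control. NK-like cells without Xcl1 had 26.6% and 31.9% in DKO and 22.7% and 25.8% in control. CD8 T-like cells with Xcl1 had 18.4% and 25.9% in DKO and 11.8% and 20.7% in control. Those without Xcl1 had 25.4% and 40.5% in DKO and 28.0% and 18.6% in control. These shares were not thinned.

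FLT3, the receptor for FLT3L, had its transcripts mostly in DCs. Flt3 (chr5:147330741-147400489, minus strand) was highest in mature (276 ± 27.6 CPM, mean ± SD of the 4 libraries), type 1 (227 ± 58.6 CPM) and plasmacytoid DC-like cells (218 ± 82.1 CPM), which differed by less than their spread. In mature DC-like cells it was 260 and 309 CPM in DKO and 288 and 248 CPM in control, and the groups overlapped at a log2 change of -0.01 (SE 0.19). In type 2 DC-like cells it was 91.5 and 138 CPM in DKO and 74.5 and 52.6 CPM in control. Both DKO libraries were higher there, and the log2 change of 0.81 (SE 0.24) did not pass (edgeR adjusted p = 0.324, range over all alternatives 0.0207 to 1.00, the lowest without DKO 1, where it was 0.95). In the whole conventional DC class Flt3 was 134 and 177 CPM in DKO and 132 and 104 CPM in control, a log2 change of 0.32 (SE 0.16, edgeR adjusted p = 0.611). T-like cells, which lack the receptor, held a Flt3 UMI in 0.1% and 0% of cells in DKO and 0% and 0.1% in control after thinning, against 50.6% and 45.8% of mature DC-like cells in DKO and 43.4% and 37.4% in control. Thinned to 1000 UMIs the mature shares were 27.5% and 19.2% in DKO and 34.3% and 19.8% in control, so no order is read from them.

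The genes of both CCR4 ligands lie 58753 bases apart on chromosome 8 of GRCm38, Ccl22 at chr8:94745590-94751699 and Ccl17 at chr8:94810453-94812036, both on the plus strand, with Cx3cl1 and the pseudogene Gnb1-ps3 between them. Their upstream sequences are shown because the ligands were read out in the same mature DCs with different values. That of Fscn1 (chr5:142960343-142973185, plus strand) is shown as another gene of the mature DC. The sequences are RefSeq's for GRCm38.p6 on the plus strand, up to the base before the annotated start, without bases that lie inside an annotated gene. Capitals mark matches on either strand to an NF-kB motif (GGG, any 5 bases, CC), a STAT6 motif (TTC, any 4 bases, GAA) and the nuclear receptor half-sites AGGTCA and AGTTCA; a match describes letters and is not evidence of a site in use.
Ccl17, chr8:94810203-94810452: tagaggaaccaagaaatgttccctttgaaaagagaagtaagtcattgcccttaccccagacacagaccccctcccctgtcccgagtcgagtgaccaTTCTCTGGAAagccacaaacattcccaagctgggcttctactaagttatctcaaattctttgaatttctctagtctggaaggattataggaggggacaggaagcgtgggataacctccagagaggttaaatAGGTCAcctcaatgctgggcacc
Ccl22, chr8:94745434-94745589: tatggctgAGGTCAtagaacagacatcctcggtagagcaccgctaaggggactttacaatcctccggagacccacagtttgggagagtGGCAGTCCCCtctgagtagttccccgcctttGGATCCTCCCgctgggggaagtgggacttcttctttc
Fscn1, chr5:142960105-142960342: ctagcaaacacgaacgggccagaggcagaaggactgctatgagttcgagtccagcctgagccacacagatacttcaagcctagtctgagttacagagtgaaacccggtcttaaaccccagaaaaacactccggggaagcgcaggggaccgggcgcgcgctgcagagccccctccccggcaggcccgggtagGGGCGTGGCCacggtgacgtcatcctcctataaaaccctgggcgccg
Distances are to RefSeq's start, which for Ccl22 lies 94 bases and for Fscn1 12 bases past the end of the printed sequence. Ccl17 held a STAT6 match 154 bases and an AGGTCA match 23 bases before the start and no NF-kB match in this window. Ccl22 held NF-kB matches 162 and 131 bases before the start and an AGGTCA match 242 bases before it, and an AGTTCA match at 54 bases, in the part not printed. Fscn1 held NF-kB matches 59 and 20 bases before the start, the second reaching into bases left out. Of 27025 promoters of the same 250 bases, 45.4% held the NF-kB letters, 5.86% the STAT6 letters, 13.8% AGGTCA and 11.9% AGTTCA. Of the other genes with a RefSeq entry, Flt3l held an NF-kB match 66 bases and Xcr1 an AGTTCA match 130 bases before the start, while Xcl1, Flt3 and Ccr4 held none of these letters. Ccr7 had no entry.

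CCL17 and CCL22 both attract CCR4-bearing T cells, and their transcripts stood differently between the groups in the same cells. In mature DC-like cells Ccl17 was 436 and 557 CPM in DKO and 1166 and 747 CPM in control, from 322 and 389 UMIs in DKO and 1062 and 530 UMIs in control. Both DKO libraries lay below both control libraries, and the log2 change was -1.05 (SE 0.23, unadjusted p = 0.000226, edgeR adjusted p = 0.0999). The 3 highest mature cells of a library held 153 and 209 of its Ccl17 UMIs in DKO and 378 and 175 in control. Ccl22 in mature DC-like cells was 1643 and 2840 CPM in DKO and 2353 and 1935 CPM in control, with the DKO libraries at both ends and a log2 change of -0.04 (SE 0.24, edgeR adjusted p = 0.979). In this cell type 0 of 5 members tested was called by edgeR (0.162% of all genes), 1 had an unadjusted p under 0.05 (8.27% of all genes), and DESeq2 called 0. Groups did not overlap for 2 of the 5, Ccl17 and Fscn1, against 40.1% of all genes.

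In type 2 DC-like cells Ccl17 was 155 and 131 CPM in DKO and 225 and 285 CPM in control. Both DKO libraries were lower, with a log2 change of -0.90 (SE 0.20, edgeR adjusted p = 0.13). There edgeR called 0 of 5 members (0% of all genes), 2 had an unadjusted p under 0.05, Ccl17 and Flt3 (8.30% of all genes), and DESeq2 called 0. The same 2 did not overlap between groups, against 39.6% of all genes. In the whole conventional DC class Ccl17 was 236 and 264 CPM in DKO and 586 and 399 CPM in control, a log2 change of -1.05 (SE 0.18, edgeR adjusted p = 0.137). Of the alternatives in that class, DESeq2 called it (adjusted p = 0.000674), as did edgeR without the low-count filter, without DKO 1 and without DKO 2. The adjusted p ranged from 4.25e-08 to 0.582 in the class and from 0.000454 to 0.483 in mature DC-like cells, where the change was -0.68 without control 1, its highest library, and -1.35 without control 2, where it passed (edgeR adjusted p = 0.00599). In type 2 DC-like cells it passed without DKO 1 at -1.07 (edgeR adjusted p = 0.00371). The clusters led by Ifit3 and Ifit1 or by Mmp12 and F10 overlapped in Ccl17, at 135 and 309 CPM in DKO and 516 and 164 CPM in control for the Ifit3 cluster.

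The ratio of both ligands within a library does not depend on how many cells it holds. It can still move with the makeup of those cells, and that part was not tested. Mature DC-like cells had 26.5 and 19.6 Ccl17 UMIs per 100 Ccl22 UMIs in DKO and 49.5 and 38.6 in control, with means of 23.1 ± 4.88 in DKO and 44.1 ± 7.71 in control (SD, n = 2 each). Over all conventional DC-like cells the ratio was 46.8 and 43.4 in DKO and 87.1 and 69.2 in control. The groups did not overlap in either, at log2 differences of -0.93 and -0.79, and the exact permutation test gave p = 0.333 for both, the smallest it allows here. The ratio was also lower in DKO without overlap in the Ifit3 and Mmp12 clusters, at log2 differences of -0.86 and -1.39. The Mmp12 ratio rests on few Ccl22 UMIs, 12 and 32 in DKO and 29 and 8 in control. The Ifit3 cluster had 120 and 86 in DKO and 166 and 35 in control. It overlapped in type 2 DC-like cells (log2 difference 0.12, exact permutation p = 0.667), on 4 and 34 Ccl22 UMIs in DKO and 59 and 11 in control, and in monocyte/macrophage-like cells (0.085, exact permutation p = 0.667). Of mature cells with a Ccl22 UMI, 47.5% and 52.2% in DKO and 60.6% and 52.9% in control also held a Ccl17 UMI. After thinning, 34.1% and 30.6% of mature cells in DKO and 42.4% and 35.2% in control held a Ccl17 UMI, against 0% and 0% of NK-like cells in DKO and 0.3% and 0% in control.

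**Figure D3:**
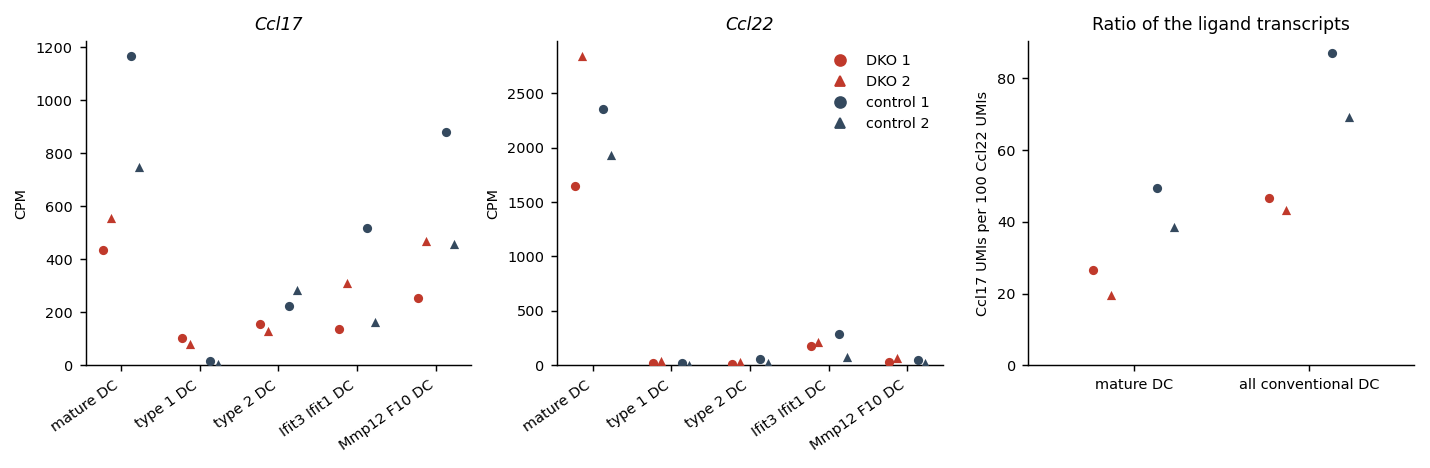
Ccl17 and Ccl22 as CPM by DC type, and Ccl17 UMIs per 100 Ccl22 UMIs in mature and in all conventional DC-like cells; each point is 1 library, DKO left of control. The ratio lies at 19.6 and 26.5 in DKO mature cells, below 38.6 and 49.5 in control.

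Type 1 DC-like cells stood the other way for Ccl17, with 102 and 79.2 CPM in DKO and 17.8 and 4.45 CPM in control. These values came from 39 and 76 UMIs in DKO and 9 and 1 UMIs in control, and the 3 highest cells of each library held 36 and 73 of those UMIs in DKO and all 9 and 1 in control. These levels rest on single cells. Monocyte/macrophage-like cells had 8.30 and 13.3 CPM in DKO and 9.96 and 2.83 CPM in control, which overlapped (log2 change 0.73, SE 0.55, edgeR adjusted p = 0.769; 1.84 without control 1, adjusted p = 1.56e-06). As the largest class they held 31.0% and 22.6% of all Ccl17 UMIs in DKO and 17.3% and 12.1% in control. The change in the DC class minus that in the monocyte/macrophage class was -1.87 for Ccl17 (SE 0.60, edgeR class-by-group term, adjusted p = 0.935). That term was -2.13 without DKO 1, -1.56 without DKO 2, -2.56 without control 1 and -1.36 without control 2. Each of these fits leaves 1 library in a group, so only the size is given. In the unnamed macrophage-marked cluster led by Apol7c and Tlr12, Ccl17 was 6.90 and 8.19 CPM in DKO and 20.1 and 8.95 CPM in control (log2 change -1.12, SE 0.28, edgeR adjusted p = 0.0808). There 80 of control 1's 88 Ccl17 UMIs lay in 1 cell, and the change was -0.29 without control 1 and passed without each of the other libraries in turn, at -1.03 to -1.40. Ccl22 there had 112 of DKO 2's 145 UMIs in 1 cell and passed at 2.20 without DKO 1 (edgeR adjusted p = 8.49e-06), but was -0.86 without DKO 2. In that cluster edgeR called 0 of 4 members (1.09% of all genes), 1, Ccl17, had an unadjusted p under 0.05 (9.04% of all genes) and no overlap between groups (39.7% of all genes), and DESeq2 called 0.

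Ccl22 was held by mature DC-like cells in every library, with 83.3% and 80.2% of its UMIs in DKO and 83.5% and 90.1% in control. Within them, the small cluster led by Il12b, Cd70 and Bcl2l14 stood highest, at 3652 and 6442 CPM in DKO and 3869 and 4045 CPM in control, on 9 and 14 cells in DKO and 12 and 4 cells in control. DKO 2 held 979 of its Ccl22 UMIs in those 14 cells.

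CCR4, the receptor for both ligands, had its transcripts mostly in CD4 T cells here. Conventional CD4 and regulatory T-like cells together held most Ccr4 UMIs in every library. An unnamed cluster led by Il7r and Tmem64 had 0 and 51.8 CPM in DKO and 54.0 and 22.0 CPM in control. Those levels came from only 0 and 6 UMIs in DKO and 5 and 1 in control. In regulatory T-like cells, the FOXP3 lineage that restrains immune responses, Ccr4 (chr9:114490316-114504916, minus strand) was 76.1 and 81.7 CPM in DKO and 31.9 and 43.7 CPM in control, from 41 and 71 UMIs in DKO and 21 and 17 UMIs in control. Both DKO libraries lay above both control libraries. The log2 change was 1.05 (SE 0.27, unadjusted p = 0.000612, edgeR adjusted p = 0.0921), which missed the threshold, and without the low-count filter it passed (edgeR adjusted p = 0.041; range over all alternatives 0.041 to 0.395).

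Of 3 members tested in regulatory T-like cells edgeR called 0 (0.318% of all genes), 2 had an unadjusted p under 0.05, Ccr4 and Flt3l (12.9% of all genes), and DESeq2 called 0, with no adjusted p for Ccr4. Both had no overlap between groups, against 44.8% of all genes. After thinning, 12.4% and 12.4% of these cells in DKO and 7.5% and 9.4% in control held a Ccr4 UMI (22.3% and 28.7% in DKO and 12.5% and 14.9% in control before thinning), at median depths of 3760 and 4890 UMIs in DKO and 3713.5 and 3438 UMIs in control. Thinned to 1000 UMIs the groups overlapped, at 5.08% and 6.79% in DKO and 5.33% and 7.22% in control, so the direction turned with the depth. The share thinned to 2000 UMIs was 0% in monocyte/macrophage-like cells of every library. In conventional CD4 T-like cells Ccr4 was 20.6 and 30.3 CPM in DKO and 20.8 and 25.9 CPM in control, with a log2 change of 0.06 (SE 0.26, edgeR adjusted p = 0.959). There edgeR called 0 of 4 members (0.365% of all genes), 1 had an unadjusted p under 0.05, Flt3l (12.8% of all genes), which was also the 1 without overlap (44.6% of all genes), and DESeq2 called 0. Whether the Ccr4 change differed between both CD4 types was not tested.

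CCR7 leads mature DCs and naive or central memory T cells to lymph nodes. Ccr7 (chr11:99144196-99155077, minus strand) was 2944 and 3561 CPM in mature DC-like cells of DKO and 3356 and 2694 CPM in control, and the groups overlapped at a log2 change of 0.01 (SE 0.22). Naive or memory T-like cells came next with 476 and 275 CPM in DKO and 322 and 357 CPM in control, then B-like cells with 262 and 291 CPM in DKO and 471 and 158 CPM in control. The last 2 types differed by less than their spread. Of mature DC-like cells, a smaller share held a Ccr7 UMI in DKO, without overlap before thinning and at both thinned depths. Cells with Ccr7 were 86 of 93 and 74 of 80 in DKO and 108 of 112 and 94 of 99 in control before thinning. The difference in share was not tested, and no share over all genes stands beside it. In regulatory T-like cells Ccr7 was 35.3 and 15.0 CPM in DKO and 15.2 and 30.8 CPM in control. In conventional CD4 T-like cells it was 114 and 51.8 CPM in DKO and 75.1 and 28.7 CPM in control, with overlap and a log2 change of 0.62 (SE 0.81, edgeR adjusted p = 0.859). It passed at 1.09 without DKO 2 and at 1.46 without control 1 (edgeR adjusted p = 0.0101 and 0.0452, range over all alternatives 0.0101 to 1.00), and was -0.11 without DKO 1. In type 1 DC-like cells 80 of DKO 1's 90 Ccr7 UMIs lay in 1 cell, so its 235 CPM there, against 18.8 CPM in DKO 2 and 3.95 and 0 CPM in control, rests on that cell.

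FSCN1 bundles actin in the protrusions of mature DCs, and its transcript followed Ccr7 across the conventional DC class. Fscn1 was 1704 and 2065 CPM in mature DC-like cells of DKO and 1671 and 1485 CPM in control. The DKO libraries were both above the control libraries, by little for DKO 1, and the log2 change was 0.16 (SE 0.21, edgeR adjusted p = 0.897). A larger share of mature DC-like cells held an Fscn1 UMI in DKO, without overlap before thinning and at both thinned depths. Before thinning the margin between DKO 2 and control 2 was narrow. That difference was not tested, and no share over all genes stands beside it. Of conventional DC-like cells with a Ccr7 UMI, 75.2% and 73.3% in DKO and 71.4% and 76.7% in control also held Fscn1, against 1.94% and 1.69% in DKO and 1.34% and 4.40% in control of those without Ccr7. This contrast over the class also separates mature cells from other DC types. In mature cells both genes were found together in 83.9% and 80.0% of cells in DKO and 79.5% and 78.8% in control. Of mature cells with Ccr7, 90.7% and 86.5% in DKO and 82.4% and 83.0% in control held Fscn1. Mature cells without Ccr7 were few, and 2 of 7 and 3 of 6 in DKO and 3 of 4 and 4 of 5 in control held Fscn1. Mature cells with UMIs of Ccr7, Fscn1 and Ccl22 together were 76.3% and 70.0% in DKO and 72.3% and 70.7% in control.

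Outside the DCs, Fscn1 was 0.832 and 1.09 CPM in monocyte/macrophage-like cells of DKO and 2.08 and 1.63 CPM in control, from 31 and 25 UMIs in DKO and 96 and 82 in control. It had there a log2 change of -0.996 (SE 0.30, unadjusted p = 0.0122, edgeR adjusted p = 0.527). It was the member of that class whose groups did not overlap, of 8 tested, against 38.3% of all tested genes, and edgeR called 0 of the 8 (0% of all genes), 1 had an unadjusted p under 0.05 (7.55% of all genes), and DESeq2 called 0. The change in DC-like minus monocyte/macrophage-like cells was 1.01 for Fscn1 (SE 0.23, edgeR class-by-group term, adjusted p = 0.0954) and 1.88 for Xcr1 (SE 0.50, adjusted p = 0.193). That of Fscn1 was 1.28 without DKO 2 and 0.64 without DKO 1. Those of Xcr1, Ccl22 and Ccr7 were 2.27, -1.57 and -0.96 without DKO 1, and 1.51, -0.45 and 0.19 without DKO 2. These fits leave 1 library in a group, so only the size is given. None of 8 members passed this term, against 0.140% of all genes, and none of 4 passed the T minus NK term, against 0.0563%. Tumour or fibroblast-like cells, which came through the CD45+ sort, had 67.0 and 61.3 CPM of Fscn1 in DKO and 85.9 and 83.6 CPM in control.

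Ccr7 in CD8 T-like cells was the member and cell type that passed the test. It was 91.7 and 99.0 CPM in DKO and 34.8 and 42.9 CPM in control, from 349 and 172 UMIs in DKO and 56 and 56 UMIs in control. Both DKO libraries lay above both control libraries, at means of 95.4 ± 5.18 CPM in DKO and 38.9 ± 5.71 CPM in control (SD, n = 2 each). Ccr7 rose with a log2 change of 1.21 (SE 0.18, edgeR adjusted p = 5.42e-05). It was the 1 member called of 3 tested in these cells, where edgeR called 2.16% of all genes and 48.5% showed no overlap between groups, and over all alternatives its adjusted p lay between 1.43e-08 and 0.0196. DESeq2 gave it a log2 change of 1.21 and an unadjusted p of 1.14e-05 with no adjusted p.

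A few cells carried a large part of these UMIs. Cells with a Ccr7 UMI numbered 79 of 612 and 33 of 211 in DKO and 28 of 282 and 19 of 212 in control. The highest cell held 31 and 32 UMIs in DKO and 17 and 12 UMIs in control, and the 3 highest together 79 of 349 and 66 of 172 in DKO and 23 of 56 and 25 of 56 in control. After thinning, 8.1% and 7.2% of CD8 T-like cells in DKO and 4.5% and 5.9% in control held a Ccr7 UMI (12.9% and 15.6% in DKO and 9.9% and 9.0% in control before thinning), at median depths of 5344 and 6971 UMIs in DKO and 4930 and 5381 UMIs in control. The thinned share in monocyte/macrophage-like cells was 0.3% and 0.6% in DKO and 0.3% and 0.3% in control. Of the Ccr7-bearing CD8 cells, 1 in each DKO library and 0 in control also held Fscn1, Ccl22, Ccl17 or Flt3. Without all cells holding those DC genes, Ccr7 was 91.3 and 99.9 CPM in DKO and 36.5 and 43.5 CPM in control. The summed conventional DC markers in CD8 T-like cells were 66.2 and 85.8 CPM in DKO and 70.9 and 66.7 CPM in control.

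The CD8 T-like cells came from clusters of different leading genes. In the cluster led by Ccl4, Ccl3 and Cx3cr1, Ccr7 was 234 and 177 CPM in DKO and 104 and 112 CPM in control, on 249 and 122 cells in DKO and 87 and 61 cells in control. It rose there as well, by a log2 change of 0.89 (SE 0.21, edgeR adjusted p = 0.0187, 0.857% of all genes called). In the cluster led by Cd8b1, Cd8a and Gzmk, which encodes a granzyme, it was 18.3 and 5.09 CPM in DKO and 7.81 and 20.3 CPM in control, with a log2 change of 0.01 (edgeR adjusted p = 0.999, 0.0650% of all genes called). The Ccl4 Ccl3 cluster made up 40.7% and 57.8% of CD8 T-like cells in DKO and 30.9% and 28.8% in control, so its share moved with the class value. Xcl1, the type 1 DC attractant, was also highest in that cluster, at 535 and 1017 CPM in DKO and 954 and 1035 CPM in control (log2 change -0.43, edgeR adjusted p = 0.729). Whether the Ccr7 change differed between both clusters was not tested.

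**Figure D4:**
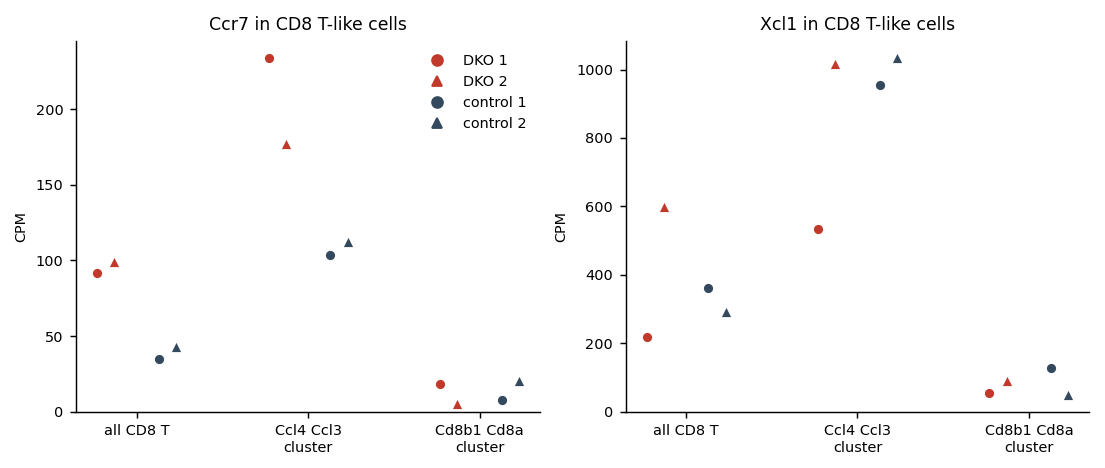
Ccr7 and Xcl1 as CPM in all CD8 T-like cells and in each of their clusters; each point is 1 library, DKO left of control. Ccr7 in all CD8 T-like cells lies at 91.7 and 99.0 CPM in DKO and at 34.8 and 42.9 CPM in control, and Xcl1 overlaps.

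In the other T cell types Ccr7 did not pass. In Ly49-expressing T-like cells it was 59.6 and 88.5 CPM in DKO and 61.7 and 50.7 CPM in control (log2 change 0.34, SE 0.17, edgeR adjusted p = 0.397), and in the whole T class the log2 change was 0.30 (SE 0.15, edgeR adjusted p = 0.402). CD8 T-like cells held 10.1% and 5.05% of all Ccr7 UMIs in DKO and 1.46% and 2.32% in control.

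**Figure D5:**
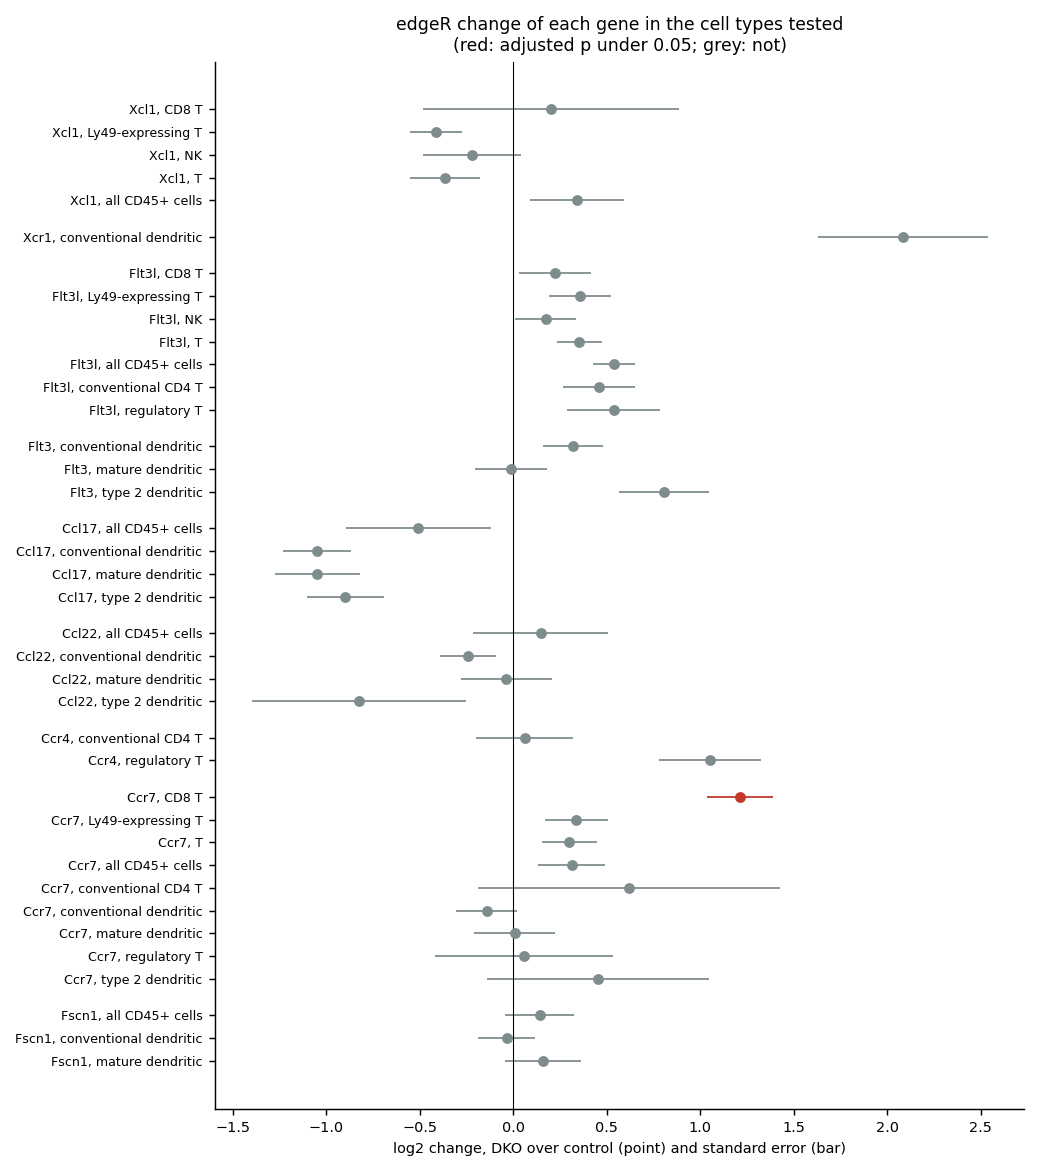
Log2 change of DKO over control with its SE for each gene in the cell types tested where either group averaged at least 20 CPM; red marks an edgeR adjusted p under 0.05. Ccr7 in CD8 T-like cells, at 1.21, is the point that passed.

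Other genes of the axes were followed through lists of pathway partners, 20 genes on the XCL1 axis and the type 1 DC programme, 20 of FLT3 signalling, 19 of CCR4 ligand induction and type 2 cytokines, 26 of CCR7 migration and DC maturation, and 20 of actin bundling. In all CD45+ cells, monocyte/macrophage-like, conventional DC-like, T-like and NK-like cells no gene of the 5 lists was called. In conventional DC-like cells, 7 of 18 tested genes of the XCL1 list had an unadjusted p under 0.05 (8.26% of all genes). The median log2 change of the 18 genes was 0.28, against 0.01 over all genes. Cadm1, an adhesion molecule of type 1 DCs, had a log2 change of 1.95 (edgeR adjusted p = 0.0999), Itgae, the CD103 integrin chain, 1.26 (edgeR adjusted p = 0.137), and Clec9a, their receptor for dead cells, 1.21 (edgeR adjusted p = 0.216). Cadm1, Itgae and Clec9a were also markers used to name the type 1 cells. Those cells were 27 of 260 and 44 of 268 in DKO and 36 of 350 and 16 of 262 in control. The part of that share in these changes was not tested. In the same class the CCR4 list held Ccl24, an eosinophil-attracting chemokine, at 1.15 (edgeR adjusted p = 0.0999), and its median was 0.13 over 11 genes tested.

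In monocyte/macrophage-like cells the CCR4 list had 5 of 15 tested genes with an unadjusted p under 0.05 (7.55% of all genes) and a median log2 change of 0.58, led by the lectin gene Mgl2 at 0.99 (edgeR adjusted p = 0.374). In T-like cells the same list had a median of -0.12, with 5 of 17 tested genes positive. Among all CD45+ cells, Il13, the type 2 cytokine that acts through STAT6, had a log2 change of 1.76 (edgeR adjusted p = 0.183) and Ccl1, the ligand of CCR8, one of 1.00 (edgeR adjusted p = 0.139). The FLT3 list had a median of 0.11 in conventional DC-like cells with no gene under an unadjusted p of 0.05, and the actin list one of 0.05 with none either.

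In the finer types a few partners passed, beside the shares of all genes called there: 0.162% in mature DC-like, 1.10% in Ly49-expressing T-like, 2.16% in CD8 T-like, 0.318% in regulatory T-like and 0.365% in conventional CD4 T-like cells, and 1.09% in the Apol7c Tlr12 cluster. In mature DC-like cells Cxcr4, another chemokine receptor of migrating leukocytes, rose to 146 and 100 CPM in DKO, against 43.9 and 31.0 CPM in control (log2 change 1.603, edgeR adjusted p = 0.0287), the 1 gene of 20 tested on the CCR7 list that changed. In Ly49-expressing T-like cells Ccl5, a chemokine of activated T and NK cells, fell to 2061 and 1784 CPM in DKO, against 3272 and 2842 CPM in control (log2 change -0.73, edgeR adjusted p = 0.000191). In the same cells Ccl4 fell (log2 change -0.73, edgeR adjusted p = 0.00217), while Klf2 (0.66, edgeR adjusted p = 0.00219), a transcription factor of recirculating T cells, and its target S1pr1 (0.61, edgeR adjusted p = 0.0297) rose. In CD8 T-like cells, beside Ccr7, the cytokine signalling genes Stat3 and Socs3 rose (0.54 and 0.89, edgeR adjusted p = 0.0278 and 0.0107), as did Irf4 and Nr4a3, which follow T cell receptor signals (1.00 and 0.79, edgeR adjusted p = 0.00011 and 0.000936). The Ccl4 Ccl3 cluster was a larger share of the CD8 T-like cells in DKO, and its part in these changes was not tested. In regulatory T-like cells Ccl3 rose (1.29, edgeR adjusted p = 0.00871), and in conventional CD4 T-like cells Ptger4, Irf4 and Ccr2 rose (0.88, 0.76 and 0.64, edgeR adjusted p = 0.0388, 0.0408 and 0.0483). In the Apol7c Tlr12 cluster Cadm1 and Cxcr4 rose (1.22 and 0.73, edgeR adjusted p = 0.00226 and 0.0271), and Marcksl1, a regulator of actin at the membrane, fell (-0.86, edgeR adjusted p = 0.00417).

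Genes most like each member over 16 cell types, by Pearson's r of log2(CPM + 1), give the company in which the member was found; types share libraries, so r is a description. Xcl1 lay closest to Cd160, an NK and CD8 receptor gene (r = 0.96). Xcr1 was closest to A530099J19Rik (r = 0.95) and Flt3 to Gprc5c (r = 0.96), with the type 1 DC gene Clec9a at 0.93. Flt3l was closest to the widely expressed Shisa5 (r = 0.98), Ccl17 to Wnt11 (r = 0.97), Ccl22 to Mab21l3 (r = 0.97) and Fscn1 to Plek2 (r = 0.97). Ccr4 and Ccr7 had the weakest matches, Gpld1 at 0.91 and Fau at 0.84.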

How the data were processed

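The deposited matrices hold counts of UMIs per barcode and gene; the unit follows from whole-number entries and, per the file headers, matrix software version 3.1.0. Per the submitters' processing notes the authors used Cell Ranger, Seurat 3.1.0 and R 3.6.0, and named the builds mm10 and GRCh38. Sequencing was of 10x Genomics 3′ version 3 libraries, per the labels' protocols. Gene positions came from GENCODE (GRCm38), which matched 99.6% of the 31053 features.

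Barcodes needed 200 genes, 500 UMIs and at most 10% mitochondrial UMIs. The highest doublet scores were removed at 0.8% per 1000 cells, and free RNA was not corrected. Of 30504 barcodes 25880 were kept. Cells were clustered with scanpy 1.11.5 on 2000 variable genes without the 9 genes, 30 principal components, 20 neighbours and Leiden at resolution 1, without integration of libraries. Clusters were named from marker lists; the naming rules, and the choice to keep clusters such as the Apol7c Tlr12 cluster unnamed, were set after clusters were seen. Classes were tested with at least 50 cells in every library and finer types with at least 30.

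Counts were summed per library and type and fitted with edgeR 4.0.16 (TMM, filterByExpr, robust quasi-likelihood F test) in R 4.3.3, with Benjamini-Hochberg adjustment over all genes tested in the type. DESeq2 1.42.0 and limma 3.58.1 were alternatives, the second for cell shares. The edgeR step was tested on simulated data with 200 changed genes. Same-numbered libraries of the groups did not deviate together (correlations of -0.30 to -0.05 across genes), so replicate numbers were not used as pairs. Shares of cells with a UMI were thinned to 2000 UMIs per cell. The members, lists and markers were chosen with earlier results of these data known. The text names the 9 genes, every listed partner past the threshold in the types tested, and up to 3 partners per list and class with the smallest p at 20 CPM or more. Likeness used the mean of the 4 libraries. With 2 libraries per group the depth per library was 57458026 to 80032966 UMIs. No gamma-delta T cluster was found, and no protein sequence was used.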

Additional observations from a re-analysis of the deposited data

Results flagged for a closer look

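Ccl17 stood higher in DKO type 1 DC-like cells and lower in DKO mature and type 2 DC-like cells. The flag required opposite differences without overlap between the libraries of the groups, so the lack of overlap is part of the choice. Of all tested genes, 40.1% in mature and 39.6% in type 2 DC-like cells did not overlap either. The log2 ratio of mean CPM, DKO over control, was 3.03 in type 1 cells, -0.95 in mature cells and -0.83 in type 2 cells. The gap between type 1 and mature cells was 3.97 and that between type 1 and type 2 cells 3.86 on the log2 scale. The difference was not tested, since type 1 cells were too few in at least 1 library, and their control values came from 9 and 1 UMIs. In the DKO type 1 cells, 1 cell held 22 of the 39 Ccl17 UMIs of DKO 1 and 1 cell 58 of the 76 of DKO 2.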

How the results depend on the processing

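Ccr7 in CD8 T-like cells passed under every edgeR alternative run on these cells, at log2 changes of 1.04 to 1.48; DESeq2 gave it no adjusted p. In the cluster led by Cd8b1, Cd8a and Gzmk alone 0 members were called. Elsewhere calls depended on the setting, and the cause was not tested. No share of all genes called in the same setting stands beside the counts below, so they are not read against a background. DESeq2 called 1 member in all CD45+ cells and 1 in conventional DC-like cells. Without the low-count filter 2 members were called in conventional DC-like cells and 1 each in mature and type 2 DC-like cells, regulatory T-like cells and the Apol7c Tlr12 cluster. With doublets kept, 1 member, Ccl17, was called in mature DC-like cells (edgeR adjusted p = 0.0338). Leaving out 1 library in turn, members called ranged from 1 to 2 in CD8, 0 to 2 in conventional CD4, 0 to 1 in Ly49-expressing and 0 to 1 in all T-like cells. They ranged from 0 to 2 in conventional DC-like, 0 to 1 in mature, 0 to 2 in type 2 DC-like cells, 0 to 1 in monocyte/macrophage-like cells, 0 to 2 in the Apol7c Tlr12 cluster and 0 to 4 for the DC minus monocyte/macrophage term. The lone library of a group was then assumed to vary like the other group.

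With the replicate number as a block, 1 member was called in type 2 DC-like cells, Ccl17 (edgeR adjusted p = 0.0175), and no other count of calls changed. With the numbers crossed in this pairing, members called were 2 in conventional DC-like cells and in the Apol7c Tlr12 cluster, and 1 each in all CD45+ cells, T-like, Ly49-expressing, mature and type 2 DC-like cells. These counts also stand without the share of all genes called in the same setting.

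Of 38 changes of a gene in a cell type, 38 kept direction and side of the threshold with relative log expression factors, 37 with the block, 35 with the stricter cell filter, 35 with the members among the clustering genes, 33 with doublets kept, 33 without the filter, 32 of 33 with DESeq2 and 32 of 34 at Leiden resolution 2. Of the reversed values, Ccl22 and Flt3 in mature DC-like cells came to 0.0531 and 0.21 at Leiden resolution 2, 0.0634 and 0.0673 with doublets kept and 0.0801 and 0.0132 under the stricter filter. Ccr7 in regulatory T-like cells came to -0.56 with doublets and -0.60 under the stricter filter, and Fscn1 in conventional DC-like cells to 0.0930 with doublets. With the members among the clustering genes Ccl22 in type 2 DC-like cells came to 0.33, Ccr7 in mature DC-like cells to -0.00792 and Xcl1 in CD8 T-like cells to -0.34.

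With 1 library left out, changes ranged in all CD45+ cells from -0.93 to 0.0880 for Ccl17, -0.40 to 0.54 for Ccl22, -0.0619 to 0.35 for Fscn1 and -0.0884 to 0.67 for Xcl1. In conventional DC-like cells they ranged from -0.33 to 0.0233 for Ccr7 and -0.20 to 0.11 for Fscn1, and in mature cells from -0.47 to 0.28 for Ccl22, -0.16 to 0.18 for Ccr7 and -0.13 to 0.11 for Flt3. In type 2 cells the ranges were -2.22 to 0.34 for Ccl22 and -0.89 to 1.16 for Ccr7. In conventional CD4 T-like cells they were -0.21 to 0.29 for Ccr4 and -0.11 to 1.46 for Ccr7, in regulatory T-like cells -0.57 to 0.66 for Ccr7, in CD8 T-like cells -0.64 to 0.75 for Xcl1 and in NK-like cells -0.70 to 0.14 for Xcl1.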
